A study of Mus musculus with 6 samples.

Results

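The 10 immediate early genes Fos, Jun, Junb, Egr1, Ier2, Ier3, Nr4a1, Klf6, Csrnp1 and Dusp1 were examined in mouse embryonic stem cells with floxed Ezh2, a Polycomb gene, without and with tamoxifen. They were picked by name as early genes that serum and stress switch on, with Btg2 and Atf3 left out of the selection. All 10 were found by Ensembl identifier among the 22933 genes of the deposited table, and all 10 passed the filter of a mean value of at least 10 that left 17427 genes for testing. Only 9 of the 10 reached 10 reads per library on average, since Fos had 8.67.

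The cells were mESC of the strain m ESC Ezh2 fl/fl, grown on gelatin in medium with fetal calf serum (10%), serum replacement (5%) and LIF, a cytokine that keeps them undifferentiated (1000 U/ml). The untreated group (3 libraries, No Tamoxifen, labelled Ezh2 wild type) carries the same floxed alleles as the tamoxifen group (3 libraries, Plus Tamoxifen, labelled Ezh2 KO), which received 4-hydroxytamoxifen at 800 nM for 96 h. All libraries hold total RNA without ribosomal RNA. The labels name no Cre driver and do not say whether the line is 1 clone, whether untreated cells received the solvent, or whether replicates were separate cultures. The p-values below therefore measure the spread between these libraries, which may be technical, and effects of the drug and of any deletion cannot be told apart. The targeted gene Ezh2, which encodes the histone methyltransferase of PRC2, stood at 65.9% of its untreated level in the tamoxifen libraries (limma adjusted p 0.195, and 0.685 on scaled reads), so it did not pass the test. Which exons the deletion removes is not stated in the labels, so this level does not check the deletion itself.

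Immediate early genes are transcribed soon after a stimulus without any need for new protein. Growth factors, serum and stress act on them through MAP kinases and the factors SRF, the ETS-domain proteins and CREB, and most of their RNAs are short-lived. Their products are mainly transcription factors, with some phosphatases and small regulators that dampen the signal again. Embryonic stem cells in serum receive such signals continuously, and ERK signalling is known there for pushing cells towards differentiation.

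Promoter sequences from RefSeq (GRCm38.p6) were found for 8 of the 10 genes, and for neither Egr1 nor Ier2. Each window runs from 250 bases before to 50 after an annotated start. The windows of Fos, Dusp1 and Nr4a1 are shown because they hold CRE letters, the binding motif of CREB, through which kinase signals reach early genes. Capitals mark the CRE (TGACGTCA), its half-site (TGACG, or CGTCA on the other strand) and the TATA box (TATAAA).
Fos, chr12:85473640-85473939, plus strand: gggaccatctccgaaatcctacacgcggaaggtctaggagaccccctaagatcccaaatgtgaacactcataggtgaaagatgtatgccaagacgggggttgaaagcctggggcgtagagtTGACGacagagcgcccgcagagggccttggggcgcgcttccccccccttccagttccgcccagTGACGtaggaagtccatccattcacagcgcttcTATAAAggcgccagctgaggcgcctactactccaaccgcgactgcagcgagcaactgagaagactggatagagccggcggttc
Dusp1, chr17:26508423-26508722, minus strand: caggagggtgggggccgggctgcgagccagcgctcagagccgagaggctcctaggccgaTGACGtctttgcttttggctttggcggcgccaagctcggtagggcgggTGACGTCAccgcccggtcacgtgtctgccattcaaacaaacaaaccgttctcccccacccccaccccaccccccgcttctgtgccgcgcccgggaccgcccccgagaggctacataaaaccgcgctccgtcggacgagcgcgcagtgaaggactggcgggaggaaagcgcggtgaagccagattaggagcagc
Nr4a1, chr15:101266596-101266895, plus strand: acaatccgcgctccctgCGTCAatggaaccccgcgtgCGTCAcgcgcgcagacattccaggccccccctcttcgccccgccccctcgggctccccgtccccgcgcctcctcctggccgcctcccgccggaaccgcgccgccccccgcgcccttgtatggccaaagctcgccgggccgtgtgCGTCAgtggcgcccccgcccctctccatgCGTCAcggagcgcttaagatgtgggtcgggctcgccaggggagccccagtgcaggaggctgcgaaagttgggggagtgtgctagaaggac

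Both strands were searched, and the half-site lies within the full CRE. A half-site occurred in windows of 5 of the 8 genes (Fos, Junb, Nr4a1, Csrnp1 and Dusp1), against 20.8% of all 32851 promoter windows, which include several windows for some genes (Csrnp1 has 4). The full CRE occurred in Dusp1 alone of the 8, from position -143 to -136 relative to the start, against 1.79% of all windows. The TATA box occurred in Fos and Junb (13.6% of all windows), at positions -33 to -28 in Fos and 1 to 6 in Junb. The Junb positions count from the RefSeq start of its window. That start lies upstream of the GENCODE start at 84978718, so whether this TATA box precedes the start depends on the annotation. The AP-1 motif TGANTCA occurred in Csrnp1 alone (7.81% of all windows). Neither the CArG box bound by SRF (1.63%) nor the EGR motif GCGTGGGCG (0.612%) occurred in any of these windows. Sites outside the windows, variants of the searched letters, and any sites of Egr1 and Ier2 were not searched, so these promoters are not shown to lack them. These are matches of letters and not measured binding.

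None of the 10 early genes passed the test after tamoxifen, against 0.195% of all genes tested, and the largest differences were those of Klf6, Csrnp1 and Jun, at 1.46-fold, 1.37-fold and 1.32-fold. The test was limma on log2(value + 1), with a call at a Benjamini-Hochberg adjusted p under 0.05 over all genes. Differences are tamoxifen minus untreated on this log2 scale, where the added 1 slightly shrinks changes of low values. The fitted differences ran from -0.19 (Ier3) to 0.55 (Klf6) with a median of 0.19, beside a median of -0.0037 over all genes tested, and limma adjusted p-values ran from 0.529 to 1. In simulated reads, whose limits are given with the processing, this fit missed the smaller changes put in. A gene without a call is therefore not shown to be equal in both groups. An unadjusted p under 0.05 was reached by 1 of the 10, Csrnp1, against 9.34% of all genes. On deposited values 9 of the 10 fitted differences were above 0, against 49.4% of all genes. On reads scaled by the median of ratios 6 of the 10 were above 0, against 49.6% of all genes, and 4 below (Fos, Egr1, Ier2 and Ier3). No gene of the 10 was called by limma on scaled reads (0.023% of all genes), and 0 had an unadjusted p under 0.05 there (7.99% of all genes).

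A deposited value is a normalized signal and not a read count, so the reads behind it were recovered from the form of the values. The depth differed between libraries, from 2334448 to 5689666 recovered reads, of which the 10 most abundant genes took 20.2% to 36.7%. The 10 early genes together had 267 to 865 reads in a library. For these genes 1 read was worth a median of 46.0 units of deposited value, against 10.0 over all genes with at least 10 reads on average. That worth also changed between libraries for the same gene, by 2.77-fold (Fos) to 4.43-fold (Egr1), against a median of 3.55-fold over all such genes. Such change includes the scaling for depth. The median-of-ratios factors of the libraries ran from 0.489 (untreated replicate 3) to 1.64 (tamoxifen replicate 3). The part particular to each gene was not separated from it. A deposited value and its reads can therefore order the same libraries differently.

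**Figure D1:**
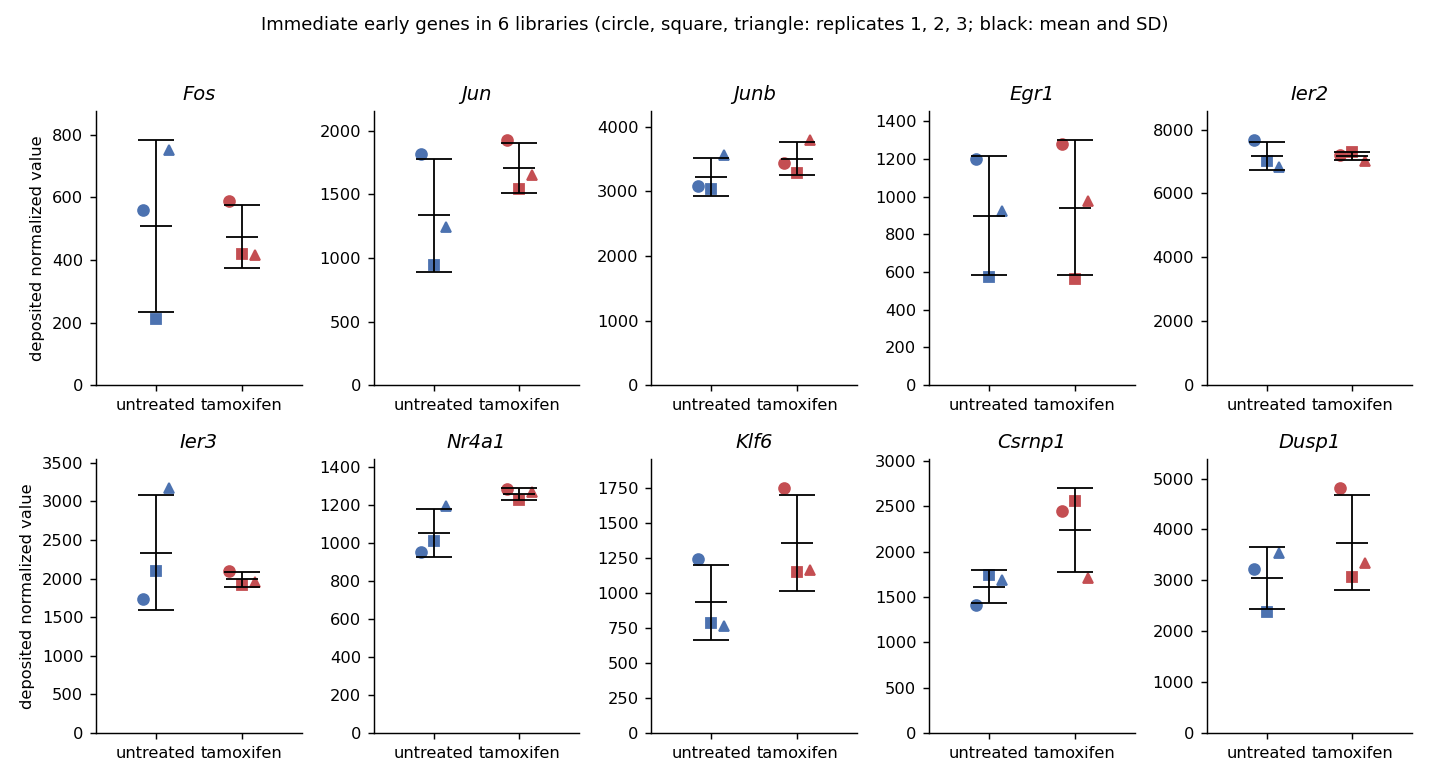
Deposited normalized values (y axis, from 0) of the 10 early genes in the 3 untreated (blue) and 3 tamoxifen (red) libraries, with the mean and SD of each group in black. The groups are apart only for Nr4a1, with 950.9 to 1192 in untreated and 1222 to 1282 in tamoxifen libraries.

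The AP-1 subunits were measured first. Fos, Jun and Junb encode basic leucine zipper proteins that pair to form the transcription factor AP-1, in which a Fos protein binds DNA only with a Jun partner. Fos (ENSMUSG00000021250, chromosome 12, 85473890 to 85477273 on GRCm38) had values of 559.8, 210.8 and 752.5 in untreated replicates 1 to 3 and 589.7, 418.7 and 415.6 in tamoxifen replicates 1 to 3. Untreated replicate 2 was the lowest and untreated replicate 3 the highest library, so the tamoxifen values lay inside the untreated range. These values rest on 10, 5 and 10 reads against 12, 4 and 11. The fitted difference was 0.069 ± 0.48 (SE), with a 95% interval from -1.10 to 1.24 and a limma adjusted p of 0.987. It turned to -0.47 without untreated replicate 2, to -0.097 without tamoxifen replicate 1 and to -0.14 on scaled reads. A change of 2-fold either way was not excluded for Fos at this depth.

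Jun (ENSMUSG00000052684, chromosome 4, 95049034 to 95052222) had 1817, 940.8 and 1246 before tamoxifen and 1923, 1541 and 1653 after it. The groups overlapped only through untreated replicate 1, which lay above tamoxifen replicates 2 and 3. The mean was 1334 ± 445 before and 1706 ± 197 after (SD, n = 3), and the fitted difference was 0.40 ± 0.25 (SE) with a limma adjusted p of 0.683. It was 0.17 without untreated replicate 2, the library with the lowest Jun value, and stood at 0.65 without untreated replicate 1. Reads were 44, 23 and 12 against 42, 21 and 60. Summed and scaled, Jun reads were 1.47 times as many after tamoxifen, with an exact 95% interval from 1.10 to 1.98 that covers counting error only and not the spread between libraries.

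Junb (ENSMUSG00000052837, chromosome 8, 84974484 to 84978718), whose product is a weaker activator than Jun, had a narrow interval. Its values were 3089, 3034 and 3571 untreated and 3439, 3291 and 3793 after tamoxifen. The difference of 0.12 ± 0.11 (SE, limma adjusted p 0.768) had a 95% interval from -0.15 to 0.39. Exons of Junb share 173 bases with Prdx2 on the opposite strand and those of Jun 232 bases with the antisense transcript Junos. Whether the counting used strand is not given in the sources used here, so reads of such partners cannot be told apart from those of the genes.

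Among the other early transcription factors, Klf6 and Csrnp1 gave the largest differences of the 10. Egr1 encodes a zinc finger protein that turns growth signals into expression of target genes. Its values were 1202, 576.6 and 922.0 untreated and 1279, 566.0 and 979.6 after tamoxifen. The highest library of each group was replicate 1 and the lowest replicate 2, and the 2 groups covered almost the same range. Reads were few, at 22, 7 and 7 against 19, 3 and 23. The difference was 0.050 ± 0.39 (SE, 95% interval from -0.89 to 0.99, limma adjusted p 0.989). It changed sign without untreated replicate 2 (-0.24), tamoxifen replicate 1 (-0.21) or tamoxifen replicate 3 (-0.018), and on scaled reads (-0.039).

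Nr4a1 (ENSMUSG00000023034, chromosome 15, 101254269 to 101274795), an orphan nuclear receptor also called Nur77, was the 1 gene of the 10 whose groups did not overlap, against 15.3% of all genes tested (7.92% with tamoxifen higher). It had 950.9, 1011 and 1192 untreated and 1282, 1222 and 1264 after tamoxifen. The mean went from 1051 ± 126 to 1256 ± 30.8 (SD, n = 3), a difference of 0.26 ± 0.13 (SE) with a limma adjusted p of 0.569. By exact permutation of the 6 libraries the two-sided p was 0.1, and no smaller p can come from groups of 3. On scaled reads the groups overlapped, with 21.1, 33.2 and 40.9 against 40.4, 29.9 and 37.8 reads, and 0 of the 10 genes had separate groups there, against 13.3% of all genes.

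Klf6 (ENSMUSG00000000078, chromosome 13, 5861482 to 5870394), a Krüppel-like zinc finger factor, had the largest difference of the 10. Its values were 1246, 788.2 and 766.4 untreated and 1751, 1148 and 1168 after tamoxifen. Untreated replicate 1 lay above tamoxifen replicates 2 and 3, and tamoxifen replicate 1 lay far above the rest. The mean was 933.4 ± 271 before and 1356 ± 343 after (SD, n = 3). The difference was 0.55 ± 0.26 (SE), with a 95% interval from -0.086 to 1.18 and a limma adjusted p of 0.568. It was 0.35 without tamoxifen replicate 1 and 0.77 without untreated replicate 1, and 0.63 on scaled reads, so it stayed above 0 in these fits without a call.

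Csrnp1 (ENSMUSG00000032515, chromosome 9, 119971163 to 119984658), a nuclear protein first known as a target of Axin, had the smallest p of the 10. It had 1410, 1742 and 1691 untreated and 2451, 2558 and 1713 after tamoxifen. Tamoxifen replicates 1 and 2 stood well above all untreated libraries, whereas replicate 3 lay inside their range. The mean went from 1614 ± 179 to 2240 ± 460.2 (SD, n = 3). The difference was 0.46 ± 0.19 (SE), with an unadjusted limma p of 0.0488 that became 0.529 after adjustment over all genes. It was 0.64 without tamoxifen replicate 3 and 0.35 without tamoxifen replicate 2, and it was 0.28 on scaled reads. Csrnp1 shares 224 exonic bases with the antisense gene 1700019L13Rik. Its paralogue Csrnp2 stood at 0.41 (limma adjusted p 0.495), with no overlap between the groups on deposited values but overlap on scaled reads. The other paralogue, Csrnp3, stood at -0.13 (limma adjusted p 0.905) and at 0.20 on scaled reads.

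**Figure D2:**
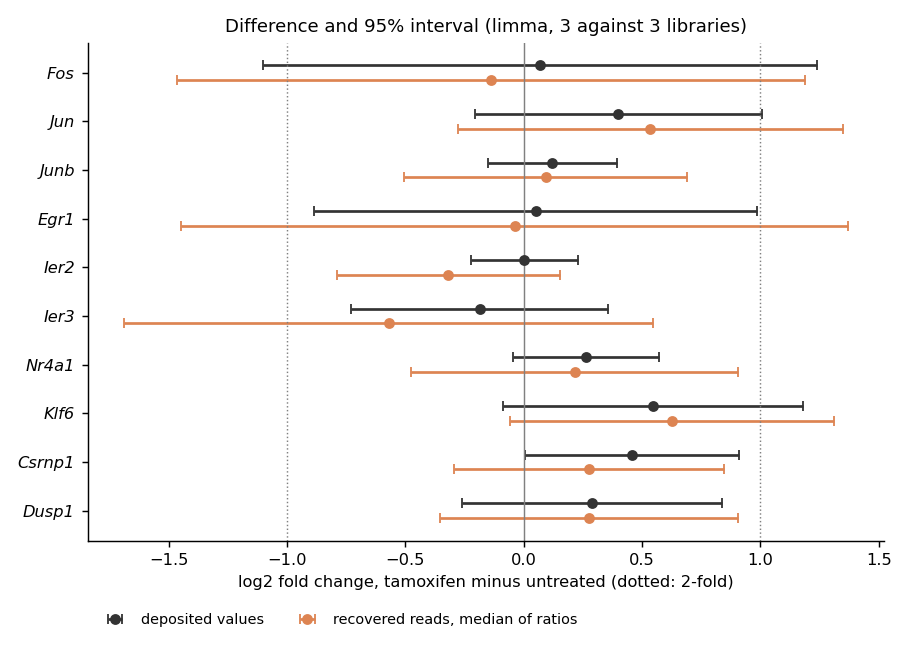
Fitted log2 fold change (x axis, tamoxifen minus untreated) of each early gene with its 95% interval, on deposited values (black) and on recovered reads scaled by the median of ratios (orange). All intervals include 0 except that of Csrnp1 on deposited values, whose lower end is at 0.0033, and the point estimates of Fos, Egr1 and Ier2 change sign between the 2 scales.

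The signal-limiting and small regulatory members came last. Dusp1 (ENSMUSG00000024190, chromosome 17, 26505590 to 26562128) encodes a phosphatase that switches off MAP kinases and so feeds back on the signal that induces it. Its values were 3227, 2373 and 3535 untreated and 4813, 3070 and 3346 after tamoxifen. Tamoxifen replicate 1 was the highest library, and the other tamoxifen libraries lay inside the untreated range. The difference of 0.29 ± 0.23 (SE, limma adjusted p 0.749) was 0.094 without tamoxifen replicate 1 and 0.12 without untreated replicate 2.

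Ier2 (ENSMUSG00000053560, chromosome 8, 84661331 to 84662852), a nuclear protein of the early response, was the steadiest of the 10 on deposited values. It had 7663, 7023 and 6818 untreated and 7213, 7287 and 7023 after tamoxifen, with means of 7168 ± 441 and 7174 ± 137 (SD, n = 3). The difference was 0.0029 with a 95% interval from -0.22 to 0.23, or 0.856-fold to 1.17-fold. The reads were less even. Scaled by the median of ratios they were 107, 130.1 and 96.2 against 95.4, 74.7 and 96.3, a fitted difference of -0.32 (limma adjusted p 0.726). Its residual SD between libraries of a group was 0.065 on deposited values and 0.21 on scaled reads.

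Ier3 (ENSMUSG00000003541, chromosome 17, 35821684 to 35822923), which encodes a regulator of cell survival, was the only member with a fitted difference below 0 on deposited values. It had 1739, 2098 and 3171 untreated and 2102, 1910 and 1960.2 after tamoxifen. The tamoxifen libraries lay close together inside the untreated range, which untreated replicate 3 stretched upwards. The difference was -0.19 ± 0.22 (SE, limma adjusted p 0.788), turned to 0.058 without untreated replicate 3 and was -0.57 on scaled reads. Reads were 13, 44 and 27 against 19, 11 and 30.

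How large a change could have been missed depended on the gene. On deposited values the 95% interval lay within 2-fold in both directions for 7 of the 10 genes, and reached past 2-fold for Fos, Jun and Klf6. On scaled reads it lay within 2-fold for 5 genes, and there it also reached past 2-fold for Egr1 (-1.45 to 1.37) and Ier3 (-1.69 to 0.55). An interval on deposited values therefore bounds the change on that scale only. With counting error alone, summed reads were more numerous after tamoxifen for Jun, Klf6 (1.37 times, 1.15 to 1.64) and Dusp1 (1.32 times, 1.09 to 1.59), and fewer for Ier2 (0.782 times, 0.669 to 0.913) and Ier3 (0.675 times, 0.476 to 0.951). None of these 5 differed beyond the spread between libraries by limma on scaled reads.

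The abundance of the early genes was compared per length, as scaled reads per kb of annotated exon, averaged over the 6 libraries. Ier2 was the most abundant at 65.7 ± 11.9 (SD, n = 6), apart from the next gene by more than the SDs. Csrnp1 (29.5 ± 6.50), Junb (24.0 ± 4.79), Dusp1 (22.7 ± 6.91), Ier3 (22.0 ± 14.4) and Klf6 (19.0 ± 6.88) followed, and no neighbours among them differed by more than their SDs. Nor did Klf6 and the next gene, Jun (9.78 ± 3.52), or Jun and Nr4a1 (9.65 ± 2.16), whereas Nr4a1 was apart from Fos. Fos (4.07 ± 2.71) and Egr1 (2.85 ± 1.60) were the least abundant and did not differ beyond their spread.

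The libraries differed in how the early genes stood in them. Each gene was centred on its mean over the 6 libraries, and the median of the 10 genes was taken in each library. This median was highest in tamoxifen replicate 1 (0.37) and lowest in untreated replicate 2 (-0.33), and between -0.0027 and 0.065 in the other 4 libraries. Over all genes tested it lay between -0.030 and 0.031 in the 6 libraries. In tamoxifen replicate 1 the value was the highest of all 6 libraries for 5 of the 10 genes, and in untreated replicate 2 the lowest for 4. On scaled reads tamoxifen replicate 1 was again highest (0.47), but tamoxifen replicate 2 was lowest (-0.26), with untreated replicate 2 at -0.20 and untreated replicate 3 at 0.21. Without untreated replicate 2 the median difference of the 10 genes was 0.098, and without tamoxifen replicate 1 it was 0.11. The part of these libraries in the fitted differences was not tested beyond leaving them out.

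**Figure D3:**
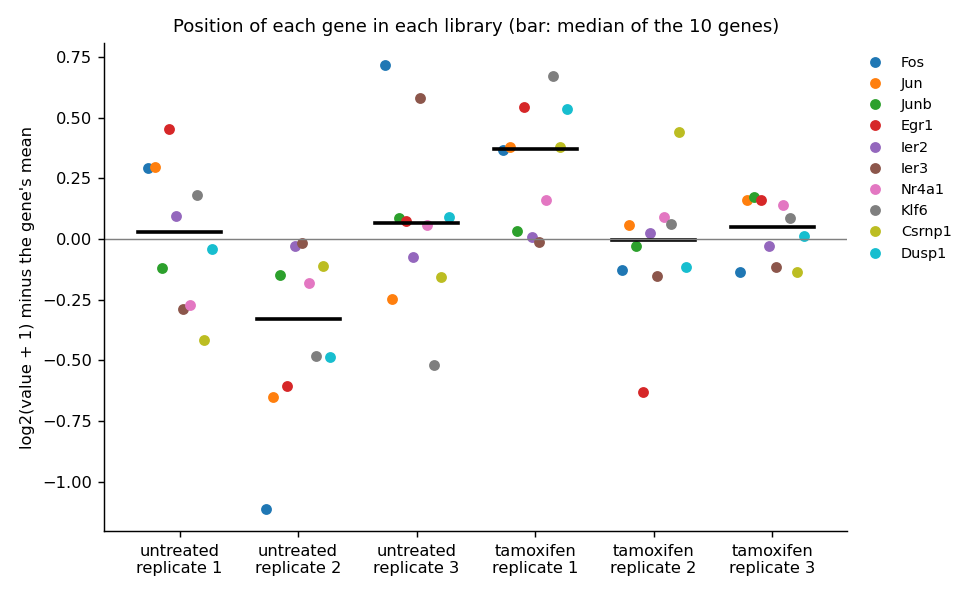
Position of each early gene in each library, as log2(value + 1) minus the gene's mean over the 6 libraries, with the median of the 10 genes as a black bar. The bars of tamoxifen replicate 1 (0.37) and untreated replicate 2 (-0.33) stand apart from the other 4 on deposited values, whereas on scaled reads tamoxifen replicate 2 was lowest (-0.26).

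Profiles over the 6 libraries lay nearer for some pairs of the 10 genes than for others. The root mean square difference between centred profiles was smallest for Junb and Nr4a1 (0.097) and largest for Fos and Csrnp1 (0.66). This difference also grows with the spread of each gene, so whether the genes share a pattern was not tested. Of 7778 other genes with at least 50 reads on average, Amz2, Ctif, Kat2a and Pi4k2b were among the nearest to the median profile of the 10, at 0.060 to 0.074, where the median over all these genes was 0.32. Prex1 (0.087), Twsg1 (0.20) and Tulp3 (0.21) came nearest to Fos, and Cdr2l (0.12), Paqr3 (0.14) and Sft2d2 (0.14) to Egr1. All 6 libraries enter each profile, so the points share depth and library effects.

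The spread between replicates was set beside that of genes with similar depth. The SD between libraries of a group was above the median of genes with similar reads (within 1.5-fold) for 6 of the 10. Klf6 (0.37 against 0.25), Egr1 (0.57 against 0.40) and Fos (0.71 against 0.52) were the widest relative to such genes. Ier2 (0.065 against 0.24), Nr4a1 (0.12 against 0.29) and Junb (0.12 against 0.26) were the tightest, with 1.44%, 8.25% and 8.45% of similar genes below them. These spreads are those of deposited values. On scaled reads the SDs of Ier2, Nr4a1 and Junb were wider, at 0.21, 0.37 and 0.33. Those of all the other early genes were wider there too, such as Egr1 at 1.06 and Ier3 at 0.83. Genes of similar depth were not compared on scaled reads.

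**Figure D4:**
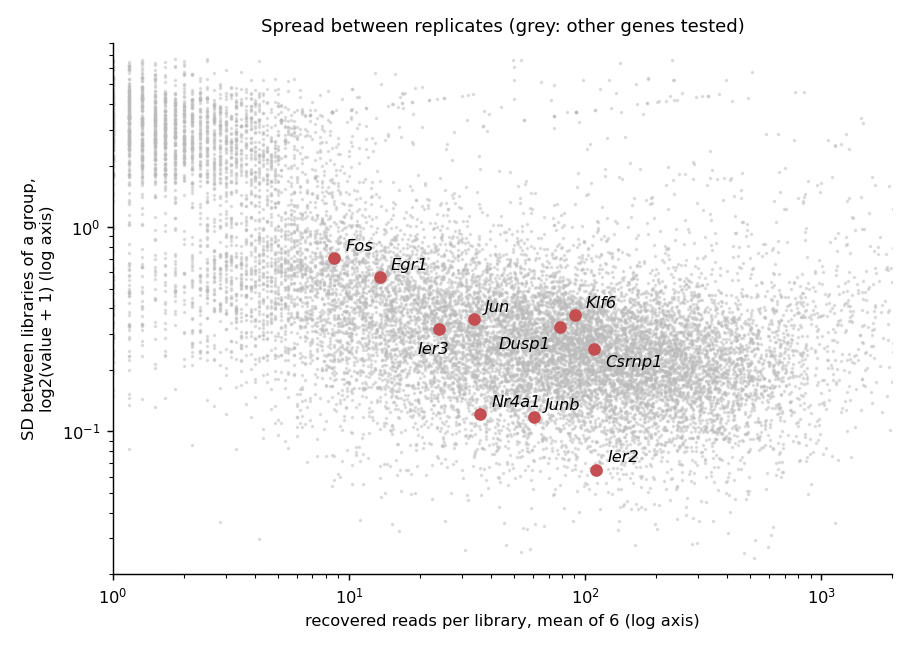
SD between libraries of a group on log2(value + 1) (y axis, log) against the mean of recovered reads per library (x axis, log), with the 10 early genes in red and other genes tested in grey, within the plotted range. Fos and Egr1 lie at the low-read end with wide spread (0.71 and 0.57), while Ier2 (0.065, but 0.21 on scaled reads) lies near the lower edge of the cloud.

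The wider early response was read from a list of 56 other early genes, of which 54 were in the table, 51 were tested and 42 had at least 10 reads on average. Of the 51, none was called, against 0.195% of all genes, and 7 had an unadjusted p under 0.05, against 9.34%. Of the 42, 29 had a difference above 0 and 13 below, with a median of 0.089 (-0.031 on scaled reads). Ccn1, a secreted matrix protein induced by serum and by YAP, had the smallest p, with a mean of 3454 ± 354 before and 6090.1 ± 295 after (SD, n = 3), a difference of 0.82 and a limma adjusted p of 0.0828. Ccn2 (0.54), Sik1 (0.27) and Nfkbia (0.38) followed with limma adjusted p of 0.458 to 0.511. These 4 were picked for their small p, and their groups did not overlap on deposited values, but those of Sik1 and Nfkbia overlapped on scaled reads.

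Btg2 and Atf3, the early genes left out of the selection, were measured beside the 10. Btg2, an antiproliferative gene and p53 target, had 1360.2 ± 91.0 before and 3288 ± 533 after (SD, n = 3), a difference of 1.26 ± 0.15 (SE) with a limma adjusted p of 0.0549. It was called (adjusted p 0.0485) when only genes with at least 10 reads were tested, where 0.127% of genes were called and again none of the early genes. Atf3, a stress-induced repressor of the ATF family, had 336 ± 159 before and 362 ± 108 after (SD, n = 3), a difference of 0.17 ± 0.40 (SE, limma adjusted p 0.911) that turned to -0.12 without untreated replicate 3 and to -0.051 without tamoxifen replicate 1.

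Kinases and factors that act upstream showed no call among 25 genes, and 3 had an unadjusted p under 0.05, against 0.195% and 9.34% of all genes. Their median was -0.046 (0.024 on scaled reads), with 11 above 0 and 14 below. Rps6ka2, an ERK-activated kinase, had a mean of 1615 ± 239 before and 1074 ± 70.6 after (SD, n = 3), a difference of -0.58 with a limma adjusted p of 0.312. Creb1 (-0.36), the p38 kinase gene Mapk14 (0.33) and Rps6ka5 (-0.29) followed with limma adjusted p of 0.437 to 0.683, and Rps6ka5 changed sign on scaled reads (0.046). Srf, whose product binds the CArG box, was listed with 1 read in untreated replicate 2 and 0 in the other libraries and was not tested. Atf2 ran from 11249 to 250776 in deposited value between libraries, and its exons hold 167 bases of the small RNA gene Gm27421 on the same strand. Among the other early genes Npas4, known as an activity-induced gene of neurons, had 708 to 4130 reads per library. Srf, Atf2 and Npas4 were singled out after their values were seen.

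Heat shock genes, which answer to handling and protein stress, numbered 12 in the list and 10 in the deposited table, where Hspa1a and Hspa1b were not found. The 10 tested gave no call and 0 at an unadjusted p under 0.05, against 0.195% and 9.34% of all genes. Of these, 5 were above 0 and 5 below, with a median of 0.017 (-0.13 on scaled reads). Hsph1 (0.40), Bag3 (0.61), Hspe1 (-0.22) and Dnajb1 (0.33) had the smallest p, with limma adjusted p of 0.529 to 0.754. The difference of Dnajb1 was 0.035 without tamoxifen replicate 2 and 0.56 without tamoxifen replicate 3, that of Hspe1 was -0.13 without untreated replicate 2 or tamoxifen replicate 1, and that of Hsph1 was 0.14 on scaled reads. Partners and paralogues of the early genes also gave no call among 13 tested, with 2 at an unadjusted p under 0.05 (0.195% and 9.34% of all genes). Csrnp2, the Egr1 corepressor gene Nab1 (0.47), the AP-1 antagonist gene Jdp2 (0.49) and Klf5 (0.34) had the smallest p among those with at least 10 reads on average. Jdp2 was at 0.21 without tamoxifen replicate 3, 0.32 without untreated replicate 2 and 0.78 without tamoxifen replicate 2, and Klf5 at 0.12 without tamoxifen replicate 2, 0.22 without untreated replicate 2 and 0.59 without tamoxifen replicate 1. Batf3, singled out after its values were seen, stood at -4.80 on deposited values on 4, 3 and 2 reads against 1, 1 and 2, and at -0.89 on scaled reads.

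**Figure D5:**
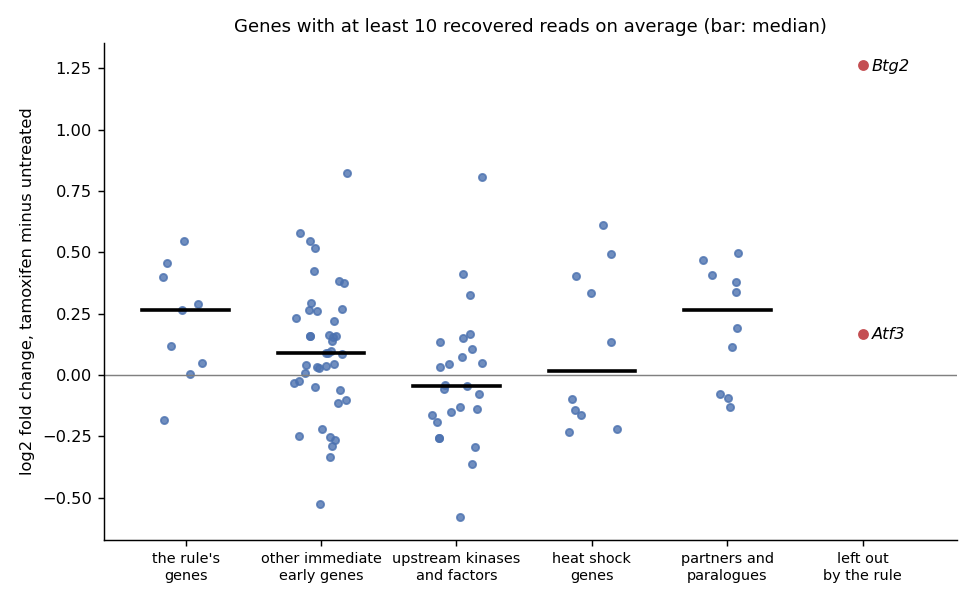
Log2 fold change (y axis, tamoxifen minus untreated, deposited values) of genes with at least 10 recovered reads on average, by list, with the median as a bar and Btg2 and Atf3 in red. The medians are 0.26 for 9 of the 10 early genes, 0.089 for other early genes, -0.046 for upstream kinases and factors, 0.017 for heat shock genes and 0.27 for partners and paralogues, and Btg2 at 1.26 lies above every other point.

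The labelled cell type was checked against its markers. All 10 stem cell markers were tested, and their scaled reads summed to 5862 to 6147 in untreated and 5441 to 5881 in tamoxifen libraries. Of these markers, 4 had a difference above 0 and 6 below, with a median of -0.025 (-0.17 on scaled reads). None was called by limma and 2 had an unadjusted p under 0.05, Nanog at 0.57 and Tfcp2l1 at 0.70. Both had no overlap between the groups on deposited values and were singled out after their values were seen. Primitive and visceral endoderm markers summed to 178 to 220.1 and 415 to 474, with 9 of 10 above 0, 0 of 10 called by limma and 6 at an unadjusted p under 0.05. Trophoblast markers summed to 211 to 407 and 438 to 577, with 9 of 9 tested above 0, none called and 4 at an unadjusted p under 0.05. Over all genes tested, 49.4% were above 0, 0.195% were called and 9.34% had an unadjusted p under 0.05. Fibroblast feeder markers summed to 32.9 to 58.9 and 42.7 to 66.4, and Lum was at 0 in all libraries. In bulk RNA, a change in the number of such cells and in RNA per cell cannot be told apart, and the part of these markers in the differences of the early genes was not tested.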

How the data were processed

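Per the submitters' processing notes, TopHat2, bedtools and DESeq2 were used with the build mm9; versions, annotation, counting rule and strand setting are not given in the sources used here. The deposited table holds a normalized signal per Ensembl gene and library. It had been planned for limma on log2(value + 1), which was kept. Each value above 0 equals 9.73 × k × (m + 0.1) / (k + 0.1) for whole k and m (largest relative misfit 5.11e-15), and k was taken as the reads. A single solution existed for 98.8% of 100305 values; the remaining values took the solution closest to the same gene elsewhere, or m/k nearest 1. Sorted m differed by at most 4 between libraries. Reads were scaled by the median of ratios of genes with reads in all 6 libraries. The fit used R 4.3.3 and limma 3.58.1 (trend, Benjamini-Hochberg over 17427 genes). On simulated reads with known changes, limma on deposited values missed the smaller changes, found a minority of the larger ones and made more false calls than its threshold allows. With at least 10 reads on average it found most of the larger ones, and on scaled reads with that filter most of both, with few false calls. The simulation gave every gene the same relative spread beyond counting error. Its deposited values reused the value per read of the observed libraries, which adds observed counting error to that of the simulated reads. The 2 scales were therefore not simulated on equal terms, and power in the real data was not measured. Symbols, exon lengths and coordinates came from GENCODE vM21 (GRCm38), a build other than that of the files. Remaining steps used Python 3.11.15. The 10 genes and all lists were chosen with earlier results of these data known. Named by rule were the 10 genes, Ezh2, up to 4 genes of smallest p per further list with at least 10 reads on average, and the nearest profiles (5 for the median, 3 each for Fos and Egr1); 1 of them is not reported here. Alternatives were another pseudocount, 2 other filters, reads in place of values, quantile normalization, no trend, a replicate block and leaving out each library.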

Additional observations from a re-analysis of the deposited data

How the results depend on the processing

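No early gene was called in any of the 15 alternatives run (13 for Fos, which has too few reads for the filters on reads), with adjusted p between 0.295 and 1. Quantile normalization was a weak check among these. Sorted m already differed by at most 4 between libraries, so the deposited values had nearly the same distribution in each. The count of all genes called was 34 and became 52 with a pseudocount of 10 or with no filter, 15 with at least 10 reads on average, 62 without a trend, 4 on recovered reads under either scaling, and 5 on reads with at least 10 on average, a fit added after seeing the data. It was 66 to 103 with 1 library left out. Scaling reads by the library total moved the median of all genes to 0.24, and that of the early genes to 0.42, or 0.18 relative to it. Signs reversed on scaled reads for Fos (-0.14), Egr1 (-0.039), Ier2 (-0.32, or -0.051 by library total) and Rps6ka5 (0.046, or 0.31 by library total), and for Creb1 (0.18) by library total. With 1 library left out, Fos ranged from -0.47 to 0.44, Egr1 from -0.24 to 0.38, Ier2 from -0.032 to 0.052, Ier3 from -0.37 to 0.058, Atf3 from -0.12 to 0.52 and the median of the early genes from 0.098 to 0.37. Btg2 (adjusted p 0.0549) was called with a pseudocount of 10 (0.0447), no filter (0.0489), at least 10 reads (0.0485) and without tamoxifen replicate 2 (0.0324). The cause of these changes was not tested. With the replicate block, 0 genes were called. Deviations of same-numbered libraries correlated at -0.0072, -0.049 and 0.0048 across genes, so the numbers were not taken as pairing, and Klf6 had an unadjusted p of 0.0086 there (adjusted p 0.490). Depth limits Fos and Egr1 most, with 3 to 23 reads per library.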
